A study of Mus musculus with 16 samples.

Results

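The genes described here are 10 inhibitors of mitogen-activated protein kinase signalling: the dual-specificity phosphatases Dusp1, Dusp2, Dusp4, Dusp5, Dusp6, Dusp7 and Dusp10, and the Sprouty genes Spry1, Spry2 and Spry4. They are 10 of 18194 genes that the platform annotation names on the array, and every probe set annotated to one of them was taken, which gave 17 probe sets. Membership follows the gene symbol, but the genes were chosen by a reader of earlier results of these arrays, and which measured values led to the choice is not recorded. The p-values given here are therefore descriptions of the members and not independent evidence.

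RNA came from the knee end (distal 5 mm) of left femurs of 16 female mice of the C57BL/6 strain, with 1 array per mouse and 4 mice per group. The groups were knockout mice lacking estrogen receptor alpha in osteoclasts and given estrogen (ERaKO-E2-4hr), knockout mice without estrogen (ERaKO-OVX), wild-type mice given estrogen (WT-E2-4hr) and wild-type mice given vehicle (WT-OVX), all ovariectomized, with bone taken 4 hours after treatment. In the published line, as background, the deletion is made by Cre recombinase expressed from the cathepsin K locus, so the receptor is lost in osteoclasts and kept in the other cells of the bone. The sources used here give neither the age of the mice nor the estrogen compound and dose.

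Growth factors bind receptor tyrosine kinases and, through Ras, Raf and Mek, activate the kinases ERK1 and ERK2, which enter the nucleus and switch on early response genes. Dusp and Spry genes are themselves early response genes of this pathway, and their products turn it off again, as negative feedback. Dual-specificity phosphatases remove the activating phosphates from the kinases. Dusp5 acts on ERK in the nucleus, Dusp6 and Dusp7 act on ERK in the cytoplasm, Dusp2 and Dusp4 are nuclear enzymes that act on ERK and related kinases, and Dusp1 and Dusp10 act mainly on the stress kinases p38 and JNK. Sprouty proteins act further up, between the receptor and Ras or Raf. In bone, ERK signalling takes part in the survival of osteoclasts and in the response of osteoblasts to growth factors.

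Transcription of these genes is commonly switched through sites close to their start. The 300 bases around the start (250 before and 50 after) were read from RefSeq (GRCm38.p6) for 8 of the 10 members, the exceptions being Dusp4 and Spry4, and were searched on both strands. A full cAMP response element, TGACGTCA, the site of CREB, was found in 1 of the 8, Dusp1, and in 1.79% of 32851 promoters. A CArG box, the site of serum response factor, was found in 1 of the 8, Dusp5, with a pair of adjacent copies, and in 1.63% of all promoters. No match to the full palindromic estrogen response element GGTCANNNTGACC was found in the 8 (0.07% of all promoters hold one), none to the glucocorticoid response element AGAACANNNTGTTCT (0.00913%), none to the AP-1 site TGANTCA (7.81%) and none to the Ets site CCGGAAGT (3.89%). The windows of these 2 members are shown because each holds such a match, and the capitals mark the matched letters, which describe the sequence and do not show that a factor binds. Dusp1 is read from the minus strand, chr17:26508552-26508671, and Dusp5 from the plus strand, chr19:53529013-53529132, both 5′ to 3′ and wholly upstream of the annotated start.
Dusp1: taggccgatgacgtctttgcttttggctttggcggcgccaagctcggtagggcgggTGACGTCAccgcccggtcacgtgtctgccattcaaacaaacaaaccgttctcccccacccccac
Dusp5: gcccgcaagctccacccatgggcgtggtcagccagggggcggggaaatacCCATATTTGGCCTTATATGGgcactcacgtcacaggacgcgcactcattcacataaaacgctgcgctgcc

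The samples held whole bone including marrow. Osteoclast markers were present on all arrays, with the protease gene Ctsk between 3295 and 13852 and the acid phosphatase gene Acp5 between 5529 and 20254, and so was the osteoblast collagen gene Col1a1, between 26331 and 37644. In such a tissue, fewer cells of a type and less RNA per cell cannot be told apart. Values are linear array signals, with the 2% trimmed mean at 500 on each array, and differences are on the log2(signal + 16) scale. Esr1, the deleted gene, averaged 540 ± 149 in ERaKO-E2-4hr, 637 ± 60.9 in ERaKO-OVX, 507 ± 106 in WT-E2-4hr and 945 ± 138 in WT-OVX by its brightest probe set (1460591_at; SD, n = 4 each). WT-OVX mice (792 to 1100) lay above all other mice, the highest of which had 753. The same held for 1435663_at (175 to 197, against at most 149), while the groups overlapped for 1421244_at. By 1460591_at, wild-type mice given estrogen, which keep the receptor, did not lie above the knockout mice. A probe set outside the deleted part, or signal from other cells, can hide a deletion. Esr1 therefore checks neither the labels nor the deletion here. Replicates 1 and 2 of each group differed from replicates 3 and 4 in tissue makeup, as described in its own paragraph. WT-OVX replicate 2, WT-E2-4hr replicate 2 and ERaKO-E2-4hr replicate 1 stood apart, with bacterial spike-in controls that averaged 50791, 32823 and 28518, where the median of the 16 arrays was 9757. Their Actb control probe sets, read at the 3′ over the 5′ end, gave ratios of 3.53, 2.44 and 2.07.

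Of the 17 probe sets, 15 passed the filter on low signal and entered the limma fit of 31526 probe sets. The 2 others belong to Spry4: 1422020_at lay between 5.30 and 27.9 and 1422021_at between 3.91 and 141 over the 16 arrays. All 10 genes had at least 1 tested probe set. No member passed at an adjusted p of 0.05 in any of the 7 estrogen and genotype comparisons, where the share of all probe sets that passed was 0% in 6 and 0.00317%, a single probe set, in the estrogen difference averaged over genotypes. The smallest adjusted p of any member in these comparisons was 0.346, for Dusp7 in the wild-type estrogen comparison. The members are therefore described by their levels, by their differences with 95% intervals and by how many reached an unadjusted p under 0.05, beside the share of all probe sets that did so. Adjusted p-values are limma's, with Benjamini-Hochberg adjustment.

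**Figure D1:**
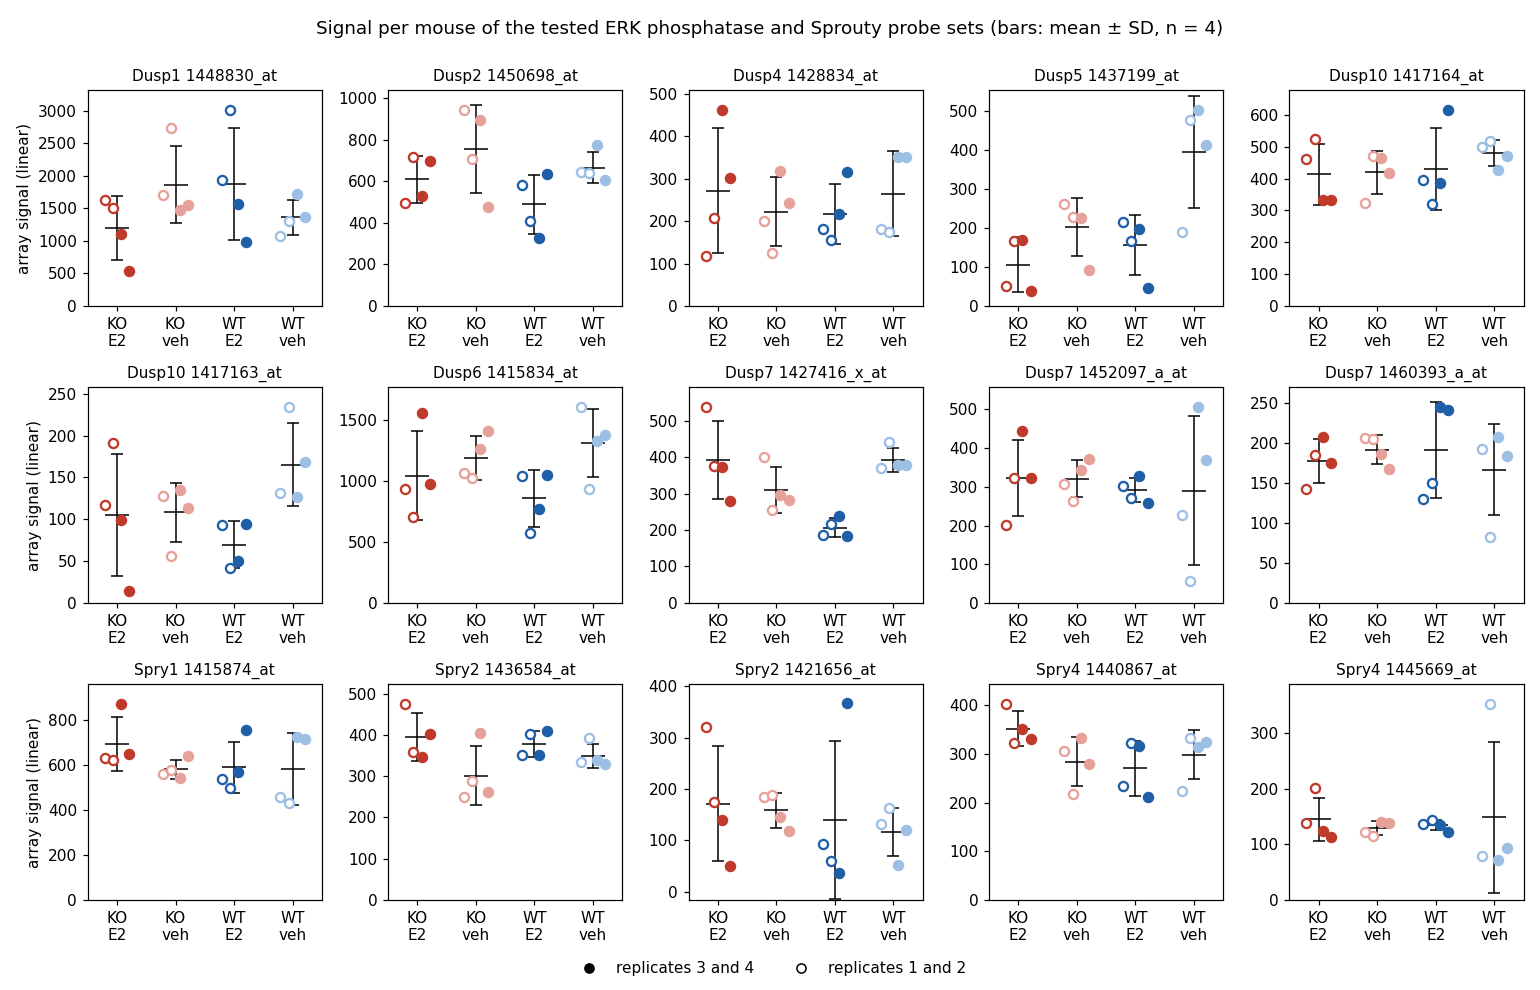
Signal per mouse (vertical axis, linear array signal) of the 15 tested probe sets in the 4 groups (KO, knockout; WT, wild type; E2, estrogen; veh, vehicle), with filled points for replicates 3 and 4, open points for replicates 1 and 2 and bars for mean ± SD (n = 4). Dusp7 1427416_x_at is the panel in which all 4 WT-E2-4hr mice, between 183 and 239, lie below the 12 others.

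In wild-type femur 4 hours after estrogen, 9 of the 15 probe sets were lower and 6 higher than under vehicle, with a median difference of -0.14, against -0.02 over all 31526. At an unadjusted p under 0.05 there were 4 of the 15 (26.7%), all lower, where 6.91% of all probe sets reached this level and 3.99% did so as lower. The 4 belonged to the ERK phosphatases Dusp5, Dusp6 and Dusp7 and to Dusp10, and without WT-E2-4hr replicate 2 there were 2. In the knockout 9 were lower and 6 higher, and 1 of the 15 (6.67%) reached this level, Spry2, which was higher, against 3.99% of all probe sets. This count was 0 to 3 when each array was left out, 0 without ERaKO-OVX replicate 1 or 2 and 3 without ERaKO-E2-4hr replicate 2 or WT-E2-4hr replicate 4. No overlap between estrogen and vehicle mice was seen for 2 of the 15 in wild type, Dusp7 and Dusp10, where 3.66% of all probe sets showed none. In the knockout none of the 15 was free of overlap, against 3.86% of all.

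Dusp5, the nuclear phosphatase specific for ERK, was lower after estrogen in both genotypes by its only probe set (1437199_at). Its signals were 49.9, 167, 168 and 38.5 in ERaKO-E2-4hr and 260, 229, 226 and 92.2 in ERaKO-OVX. In wild type they were 216, 165, 196 and 45.5 in WT-E2-4hr and 188, 478, 502 and 412 in WT-OVX. The 3 highest values of the 16 were thus all wild-type mice under vehicle, the other mouse of that group lay among the estrogen-treated ones, and the groups overlapped in both genotypes. Estrogen minus vehicle was -0.97 (95% interval -2.02 to 0.08) in the knockout and -1.34 (-2.39 to -0.29, adjusted p = 0.607) in wild type. Averaged over genotypes it was -1.15 ± 0.35 (SE), a fold of 0.450 (adjusted p = 0.719), and it kept an unadjusted p under 0.05 in all 28 alternatives run. The difference between the 2 responses was 0.37, with an interval from -1.11 to 1.85, and its sign turned between replicates 1 and 2 (-0.61) and replicates 3 and 4 (1.35). By replicate set, the wild-type difference was -0.63 in replicates 1 and 2 and -2.04 in replicates 3 and 4, and without WT-E2-4hr replicate 4 it was -0.90, with an unadjusted p above 0.05.

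Dusp6, the cytoplasmic ERK phosphatase and a common readout of ERK activity, had signals of 933, 704, 1562 and 978 in ERaKO-E2-4hr against 1067, 1021, 1262 and 1410 in ERaKO-OVX (1415834_at). In wild type it had 1041, 571, 767 and 1052 in WT-E2-4hr against 1608, 939, 1327 and 1378 in WT-OVX. The 2 lower wild-type estrogen mice lay below all vehicle mice, and the groups overlapped through the vehicle mouse at 939. Estrogen minus vehicle was -0.23 (95% interval -0.75 to 0.28) in the knockout and -0.62 (-1.14 to -0.11, adjusted p = 0.628) in wild type. The wild-type difference was of like size in both replicate sets, -0.66 in replicates 1 and 2 and -0.58 in replicates 3 and 4, and it kept an unadjusted p under 0.05 in 26 of 29 alternatives. The exceptions were replicates 1 and 2 alone, the fit without WT-OVX replicate 1 (-0.52) and the fit without WT-E2-4hr replicate 2 (-0.44). The response in the knockout minus that in wild type was 0.39 (-0.34 to 1.12).

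Dusp7, the second cytoplasmic ERK phosphatase, has 3 probe sets, and they did not give the same picture. For 1427416_x_at the signals were 537, 374, 373 and 279 in ERaKO-E2-4hr and 400.5, 256, 296 and 283 in ERaKO-OVX. They were 188, 217, 239 and 183 in WT-E2-4hr and 371, 440.5, 377 and 378 in WT-OVX. Estrogen-treated wild-type mice were below every other mouse of the study, and both wild-type groups had smaller SDs (26.4 and 32.7) than the knockout groups (107 and 63.2). The estrogen effect was 0.31 ± 0.20 (SE) in the knockout and -0.88 ± 0.20 in wild type, a fold of 0.544 (adjusted p = 0.346). The response in the knockout minus that in wild type was 1.19 (95% interval 0.58 to 1.79, adjusted p = 0.839), and knockout minus wild type after estrogen was 0.84 (0.42 to 1.27, adjusted p = 0.875). The wild-type response and the difference between responses kept an unadjusted p under 0.05 in all 29 and all 28 alternatives run. These 3 values share the WT-E2-4hr mice and are not separate observations. Both replicate sets gave the same sign, with -0.95 and -0.81 for wild-type estrogen and 1.42 and 0.96 for the difference between responses, in replicates 1 and 2 and in replicates 3 and 4.

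With all arrays used, the other Dusp7 probe sets did not show this difference. For 1452097_a_at the means were 323 ± 98.9 in ERaKO-E2-4hr, 321 ± 47.4 in ERaKO-OVX, 291 ± 31.2 in WT-E2-4hr and 290 ± 192 in WT-OVX (SD, n = 4 each). The wide spread of the last group came from values of 228, 57.8, 506 and 369. For 1460393_a_at the means were 178 ± 27.3 in ERaKO-E2-4hr, 191 ± 18.1 in ERaKO-OVX, 191 ± 59.9 in WT-E2-4hr and 166 ± 57.0 in WT-OVX. Their wild-type estrogen differences were 0.32 (95% interval -0.58 to 1.21) and 0.21 (-0.38 to 0.79), and their differences between responses were -0.35 and -0.31. Both signs of 1452097_a_at rested on WT-OVX replicate 2, the mouse at 57.8: without it the wild-type difference was -0.26 and the difference between responses 0.23, and without the 3 arrays set apart they were -0.23 and 0.40. In replicates 3 and 4 they were -0.54 and 0.63, against 1.18 and -1.32 in replicates 1 and 2. For 1460393_a_at the values without the 3 arrays were 0.03 and -0.04. In the array maker's naming the suffix _x_at marks probe sets whose probes can also match other transcripts, and _a_at those that match several transcripts of 1 gene. Which transcripts the signals came from was not tested.

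Dusp10, which acts on p38 and JNK, also had probe sets that differed. For 1417163_at the signals were 117, 191, 99.1 and 13.6 in ERaKO-E2-4hr and 127, 56.2, 135 and 114 in ERaKO-OVX. They were 93.2, 41.1, 50.4 and 94.0 in WT-E2-4hr and 131, 234, 126 and 169 in WT-OVX, so the wild-type groups did not overlap while the knockout estrogen mice spanned both. Estrogen minus vehicle was -0.28 (95% interval -1.30 to 0.74) in the knockout and -1.10 (-2.12 to -0.08, adjusted p = 0.692) in wild type. The wild-type difference kept an unadjusted p under 0.05 in 19 of 27 alternatives, some of which could not move the estimate. It did not without the 3 arrays set apart (-0.76), nor without WT-OVX replicate 2 or 4 or WT-E2-4hr replicate 2 or 3. A pseudocount of 1 (-1.28), array weights (-0.94) and replicates 3 and 4 alone (-0.92) also took it above 0.05. The WT-E2-4hr mice averaged 69.7, a dim signal. The brighter probe set 1417164_at gave -0.04 in the knockout and -0.19 in wild type (-0.64 to 0.25).

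Dusp1, the stress kinase phosphatase that glucocorticoids and growth factors induce within minutes to hours, was measured by 1 probe set (1448830_at). Its signals were 1626, 1504, 1113 and 541 in ERaKO-E2-4hr and 1707, 2735, 1467 and 1553 in ERaKO-OVX. They were 1937, 3012, 1567 and 981 in WT-E2-4hr and 1075, 1299, 1713 and 1360 in WT-OVX. Within the knockout, 2 of the estrogen mice lay below all vehicle mice, and within wild type, 2 of the estrogen mice lay above all vehicle mice and 1 lay below them. The estrogen effect was -0.70 (95% interval -1.43 to 0.02) in the knockout and 0.36 (-0.36 to 1.09) in wild type. The wild-type direction turned with the replicate set, 1.02 in replicates 1 and 2 and -0.30 in replicates 3 and 4, while the knockout gave -0.46 and -0.94. Without the 3 arrays set apart the differences were -0.89 in the knockout, with an unadjusted p under 0.05, and 0.08 in wild type, and without WT-E2-4hr replicate 2 alone the wild-type value was 0.10. The response in the knockout minus that in wild type was -1.07 ± 0.48 (SE, adjusted p = 0.839). It was -1.48 in replicates 1 and 2 and -0.65 in replicates 3 and 4, and it kept an unadjusted p under 0.05 in 16 of 28 alternatives. Quantile normalization (-0.99) and replicates 3 and 4 alone took it above 0.05. Leaving out the 3 arrays (-0.97), WT-E2-4hr replicate 2, the highest mouse (-0.80), or ERaKO-E2-4hr replicate 4, the lowest (-0.73), also took it above 0.05. So did leaving out any 1 of 7 other arrays. Without the lowest mouse the knockout difference was -0.37.

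Dusp2, a nuclear phosphatase best known from blood and immune cells, had signals of 493, 715, 529.5 and 699.8 in ERaKO-E2-4hr against 943, 705, 894 and 477 in ERaKO-OVX (1450698_at). In wild type it had 584, 408, 328 and 633 in WT-E2-4hr against 643, 638, 774 and 607 in WT-OVX, where 3 of the 4 estrogen mice lay below every vehicle mouse. Estrogen minus vehicle was -0.27 (95% interval -0.77 to 0.22) in the knockout and -0.47 (-0.97 to 0.02) in wild type, and -0.37 ± 0.17 (SE) averaged over genotypes (adjusted p = 0.958). In that average, 3 of the 15 probe sets (20%) reached an unadjusted p under 0.05, those of Dusp5, Dusp6 (-0.43, adjusted p = 0.888) and Dusp2, all lower, against 5.05% of all probe sets and 3.18% as lower. Dusp6 kept this in 22 and Dusp2 in 16 of 28 alternatives, Dusp2 not without the 3 arrays set apart (-0.30), and 1 probe set was left without WT-E2-4hr replicate 2 and 5 reached it without WT-OVX replicate 2 or ERaKO-OVX replicate 2. In the same comparison the B lymphocyte markers were below 0 in 5 of 5 (4 at an unadjusted p under 0.05, median -0.66), the cartilage markers in 7 of 7 (median -0.46), and the neutrophil lineage markers were above 0 in 7 of 7 (median 0.14). Their part in the values of Dusp5, Dusp6 and Dusp2 was not tested. Dusp4, a nuclear phosphatase acting on ERK and JNK, gave an estrogen difference of 0.19 in the knockout and -0.24 in wild type (1428834_at), and its values are described with the replicate sets.

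Spry2, a Sprouty gene that growth factors induce, had signals of 475, 358, 346 and 403 in ERaKO-E2-4hr against 249, 289, 406 and 261 in ERaKO-OVX, and of 351, 403, 350 and 409 in WT-E2-4hr against 334, 392, 340 and 329 in WT-OVX (1436584_at). The knockout vehicle group held the 3 lowest of the 16 values, and its other mouse was among the highest. Estrogen minus vehicle was 0.39 ± 0.18 (SE, adjusted p = 1.000) in the knockout and 0.11 ± 0.18 in wild type. The knockout value kept an unadjusted p under 0.05 in 18 of 29 alternatives. It did not without ERaKO-OVX replicate 1, 2 or 4, ERaKO-E2-4hr replicate 1 or 4 or the 3 arrays set apart (0.30). Array weights (0.30), the replicate block, a fit of only the knockout groups and each replicate set alone also took it above 0.05. The value was 0.59 in replicates 1 and 2 and 0.19 in replicates 3 and 4. The dimmer Spry2 probe set 1421656_at gave -0.10 and -0.14, with intervals that reached beyond 1 in both directions (-1.25 to 1.06 in the knockout and -1.30 to 1.01 in wild type).

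Spry1 averaged 694 ± 119 in ERaKO-E2-4hr, 581 ± 43.2 in ERaKO-OVX, 590 ± 114 in WT-E2-4hr and 581 ± 160 in WT-OVX (1415874_at; SD, n = 4 each). Estrogen minus vehicle was 0.24 (95% interval -0.18 to 0.65) in the knockout and 0.04 (-0.37 to 0.46) in wild type. Spry4 averaged 351 ± 36.3 in ERaKO-E2-4hr, 284 ± 49.8 in ERaKO-OVX, 271 ± 56.7 in WT-E2-4hr and 298 ± 50.2 in WT-OVX by its brightest probe set (1440867_at). Its differences were 0.30 (-0.12 to 0.72) and -0.14 (-0.56 to 0.28). A further tested Spry4 probe set, 1445669_at, gave 0.13 in the knockout and 0.15 in wild type. The wild-type value was set by WT-OVX replicate 2, with a signal of 353 where the 3 other mice had 71.8 to 93.4: it was 0.64 without that array and 0.60 without the 3 arrays set apart, there with an unadjusted p under 0.05. The 95% intervals of Spry1 and of both Spry4 probe sets included 0 in each genotype when all arrays were used.

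**Figure D2:**
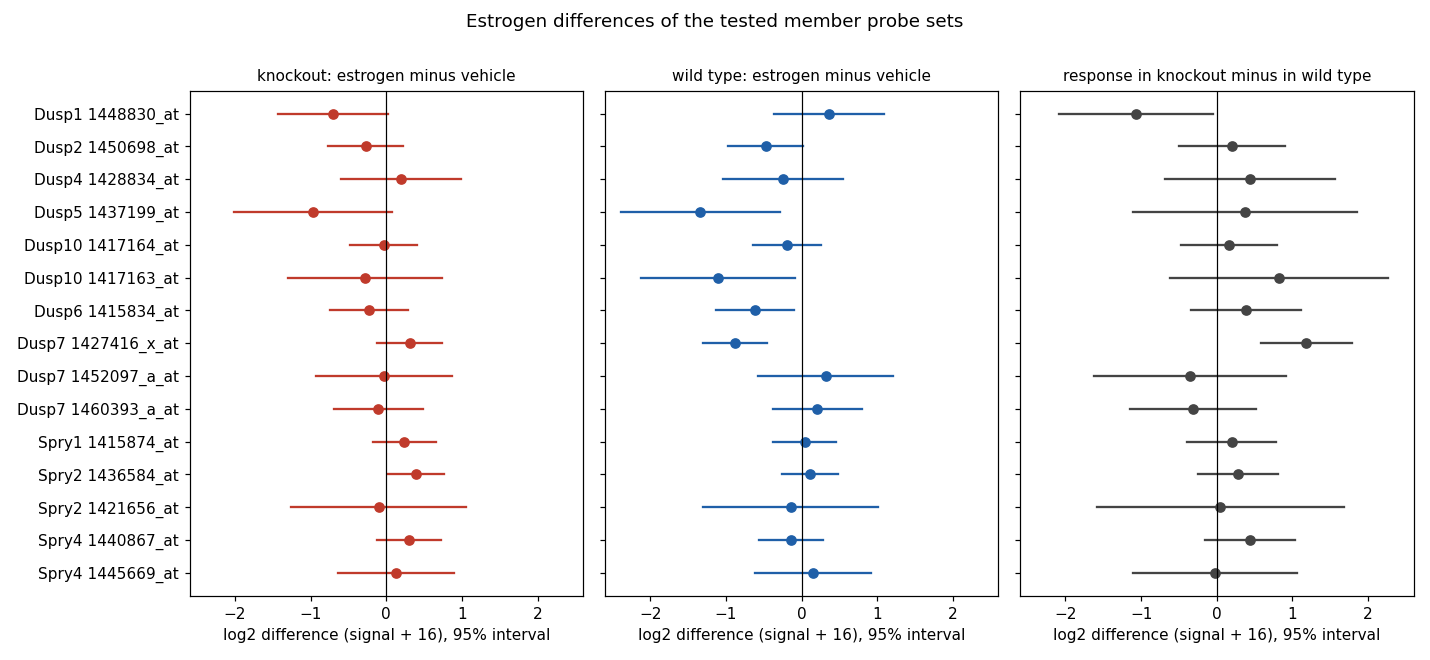
Differences on the log2(signal + 16) scale (horizontal axis, points) with 95% intervals (lines) for the 15 tested probe sets: estrogen minus vehicle in knockout (left) and in wild type (middle), and the knockout response minus the wild-type response (right). The intervals exclude 0 for Spry2 1436584_at on the left, for Dusp5, Dusp10 1417163_at, Dusp6 and Dusp7 1427416_x_at in the middle, and for Dusp1 and Dusp7 1427416_x_at on the right, where their signs are opposite.

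Between the genotypes, 0 of the 15 probe sets reached an unadjusted p under 0.05 under vehicle, where 3.39% of all did, and none was free of overlap, against 3.53% of all. The count was 0 to 3 over the 29 alternatives and 1 without WT-OVX replicate 1, WT-OVX replicate 2 or ERaKO-OVX replicate 1. Spry4 1445669_at, at 0.09 with all arrays, was 0.58 without the 3 arrays set apart and reached this level there. The nearest was Dusp5, lower in the knockout by a difference of -0.91 (95% interval -1.96 to 0.13), and it reached the level in 5 of 29 alternatives. After estrogen 1 of the 15 (6.67%), Dusp7 1427416_x_at, reached this level, against 5.27% of all probe sets, and it was also the 1 probe set without overlap, against 2.14% of all. The count was 1 to 3 over the alternatives, and 3 without WT-E2-4hr replicate 4. Spry4 1440867_at (0.37, 95% interval -0.05 to 0.80) and Dusp1 (-0.64, -1.37 to 0.08) came next. For the difference between responses, 2 of the 15 (13.3%), Dusp7 1427416_x_at and Dusp1, reached it, against 5.87% of all, and 11 of the 15 differences were above 0, with a median of 0.20 against 0.00 over all probe sets. Averaged over treatments, 0 of the 15 did so, against 2.9% of all. That count was 0 to 2 over 28 alternatives, 2 without WT-E2-4hr replicate 4, and Dusp5 (-0.73) reached the level in 9 of them.

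Levels also followed the replicate number, a split that the labels do not name. In replicates 3 and 4 the 10 skeletal muscle markers were all lower (median difference -4.26), with summed signals of 3187 to 30240 against 73324 to 585634 in replicates 1 and 2. The 8 osteoclast markers were all higher (6 at an adjusted p under 0.05, median 1.13), with summed signals of 44618 to 67572 against 22491 to 42825. Endothelium markers were higher in 6 of 6 (median 0.43) and neutrophil lineage markers lower in 6 of 7 (median -0.75). Adipocyte markers were lower in 3 of 3 (median -1.32), B lymphocyte markers in 5 of 5 (median -1.07) and erythroid markers in 4 of 4 (median -0.46), and the control probe set for 18S rRNA read 842 to 9158 in replicates 3 and 4 against 15614 to 30651 in the others. Of all probe sets, 17.4% passed at an adjusted p under 0.05 in this comparison, 31.9% reached an unadjusted p under 0.05 and 3.1% showed no overlap.

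Dusp4 was the 1 member of the 15 that passed. Its signals were 462 and 301 (ERaKO-E2-4hr), 319 and 244 (ERaKO-OVX), 217 and 316 (WT-E2-4hr) and 352 and 351 (WT-OVX) in replicates 3 and 4. In replicates 1 and 2 they were 118 and 206, 201 and 125, 182 and 154, and 182 and 175 in the same order of groups. All 8 mice of the first set lay above all 8 of the second. The difference was 0.86 ± 0.17 (SE), a fold of 1.82 (limma adjusted p = 0.00252), and it passed in all 24 alternatives run, with adjusted p between 0.00151 and 0.0154. It was 0.74 without the 3 arrays set apart. The markers of osteoclasts, muscle, endothelium, neutrophils, adipocytes, B lymphocytes and erythroid cells moved with this difference as given above, and their part in it was not tested.

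At an unadjusted p under 0.05 there were 5 of the 15 (33.3%) in the replicate comparison, close to the 31.9% of all probe sets, and 2 without the 3 arrays set apart. Beside Dusp4 they were Spry1, Dusp7 1452097_a_at and Dusp6, higher in replicates 3 and 4, and Dusp1, lower there. Spry1 ranged from 542 to 872 in replicates 3 and 4 against 430 to 631 in replicates 1 and 2, a difference of 0.33 (limma adjusted p = 0.0566). Dusp1 ranged from 541 to 1713 against 1075 to 3012, a difference of -0.52 (adjusted p = 0.0831), and both ranges overlapped widely. Dusp7 1452097_a_at gave 0.66 (adjusted p = 0.0820), where 1427416_x_at gave -0.16 (adjusted p = 0.458), so the Dusp7 probe sets disagreed here too. Dusp6 gave 0.32 (adjusted p = 0.152). Without the 3 arrays Dusp6 gave 0.19, Dusp1 -0.41 and Dusp7 1452097_a_at 0.34.

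**Figure D3:**
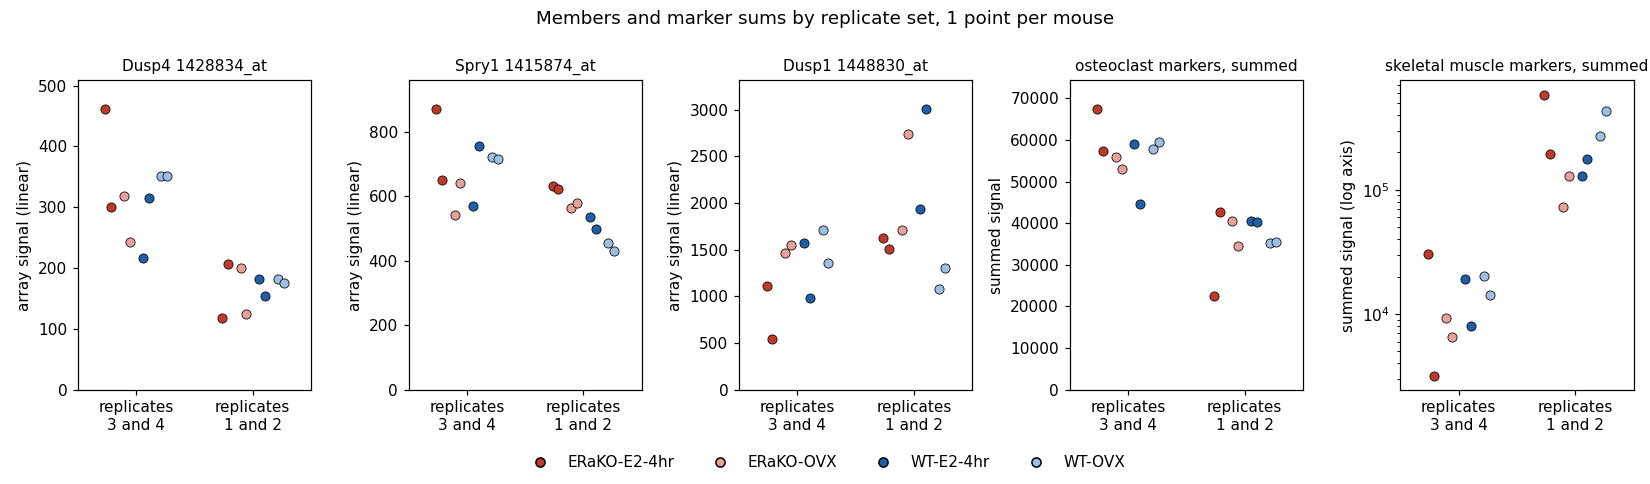
Signal per mouse (vertical axes, linear except the log axis of the muscle panel) of Dusp4, Spry1 and Dusp1 and the summed signal of 8 osteoclast and 10 skeletal muscle markers, in replicates 3 and 4 (left) and 1 and 2 (right), coloured by group. Dusp4 and the osteoclast sum lie higher in replicates 3 and 4 without overlap, and the muscle sum lies lower.

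The rest of the pathway was read from 7 lists with 119 genes, of which 110 had a probe set and 101 were tested by their brightest probe set. No list gene passed at an adjusted p of 0.05 in the estrogen comparisons, and counts below are at an unadjusted p under 0.05, a level that 3.99% of all probe sets reached in the knockout, 6.91% in wild type (3.99% as lower) and 5.87% for the difference between responses. Of the 18 tested genes of the ERK cascade itself (Ras, Raf, Mek, Erk and their scaffolds and regulators), none reached it in the knockout (9 of 18 above 0, median -0.02), and 1 was higher and 1 lower in wild type (12 of 18 above 0, median 0.06). These were the scaffold gene Ksr1 (0.65 ± 0.30, SE) and the Ras inactivator gene Rasa1 (-0.38 ± 0.18). Among 12 p38 and JNK kinase genes, the p38 alpha gene Mapk14, a substrate of Dusp1 and Dusp10, was -0.37 ± 0.14 in the knockout and 0.31 ± 0.14 in wild type (SE). The difference between its responses was -0.69 ± 0.19 (SE, adjusted p = 0.839).

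Among 17 tested genes that ERK signalling induces, 12 were above 0 after estrogen in each genotype, with medians of 0.21 in the knockout and 0.15 in wild type. In the knockout 3 were higher at this level, the early transcription factor genes Egr1 (1.10 ± 0.21, SE, adjusted p = 0.654), Egr3 (1.37 ± 0.30) and Nr4a1 (0.84 ± 0.36). In wild type 3 were higher, among them Egr1 (0.81 ± 0.21, adjusted p = 0.386) and Ier3 (1.02 ± 0.31), and the cyclin gene Ccnd1 was lower (-0.57 ± 0.19). Egr1 was thus above 0 in both genotypes, while members that the same pathway induces went both ways. Spry1, Spry2 1436584_at and Spry4 1445669_at were above 0 in both genotypes. Dusp2, Dusp5, Dusp6 and the dimmer Spry2 probe set 1421656_at were below 0 in both. Dusp4, Spry4 1440867_at and Dusp7 1427416_x_at were above 0 in the knockout and below 0 in wild type, and the other Dusp7 probe sets went the opposite way. Of these, only Spry2 1436584_at in the knockout and Dusp5, Dusp6 and Dusp7 1427416_x_at in wild type had intervals that excluded 0. Among the 11 glucocorticoid-induced genes, 11 in the knockout and 10 in wild type were above 0, with medians of 0.50 and 0.29. Mt1, a metallothionein gene, was 0.86 ± 0.27 in the knockout and 0.67 ± 0.27 in wild type (SE). Dusp1, which glucocorticoids also induce, was -0.70 in the knockout and 0.36 in wild type, with intervals that included 0 in both.

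Of 26 tested growth factor and receptor tyrosine kinase genes, 18 were above 0 in the knockout and 11 in wild type, with medians of 0.12 and -0.13. In wild type 4 of the 26 were lower at an unadjusted p under 0.05, against 3.99% of all probe sets, among them the growth factor gene Igf1 (-1.45 ± 0.31, SE, adjusted p = 0.327) and the receptor genes Pdgfrb (-0.56 ± 0.20) and Fgfr1 (-0.54 ± 0.20). In the knockout 2 were higher, the receptor gene Pdgfra (0.91 ± 0.30) and the growth factor gene Fgf1 (0.50 ± 0.17). For the difference between responses 21 of the 26 were above 0 (median 0.31). At an unadjusted p under 0.05, 5 of the 26 were higher there, against 5.87% of all probe sets in either direction. Of 10 other dual-specificity phosphatase genes, 7 were above 0 in the knockout and 3 in wild type, with medians of 0.15 and -0.28, and 3 of the 10 reached this level for the difference between responses, against 5.87% of all, Dusp14 (0.92 ± 0.33), Dusp12 (0.61 ± 0.27) and Dusp22 (0.47 ± 0.22). Of 7 other feedback inhibitors, Errfi1, which blocks the epidermal growth factor receptor, was 0.81 ± 0.26 in the knockout, and Spred1, a relative of the Sproutys, had a difference between responses of 0.76 ± 0.33. The B lymphocyte markers were below 0 in 5 of 5 in each genotype (medians -0.64 in the knockout and -0.94 in wild type), and the cartilage markers in 6 of 7 in the knockout and 7 of 7 in wild type (medians -0.26 and -0.60). The adipocyte markers were below 0 in 1 of 3 in the knockout and 3 of 3 in wild type (medians 0.38 and -0.78). The skeletal muscle markers were above 0 in 10 of 10 in the knockout (median 1.13) and below 0 in 9 of 10 in wild type (median -0.88). Their difference between responses was above 0 in 10 of 10 (median 2.02). The part of all these markers in the lists and members was not tested.

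**Figure D4:**
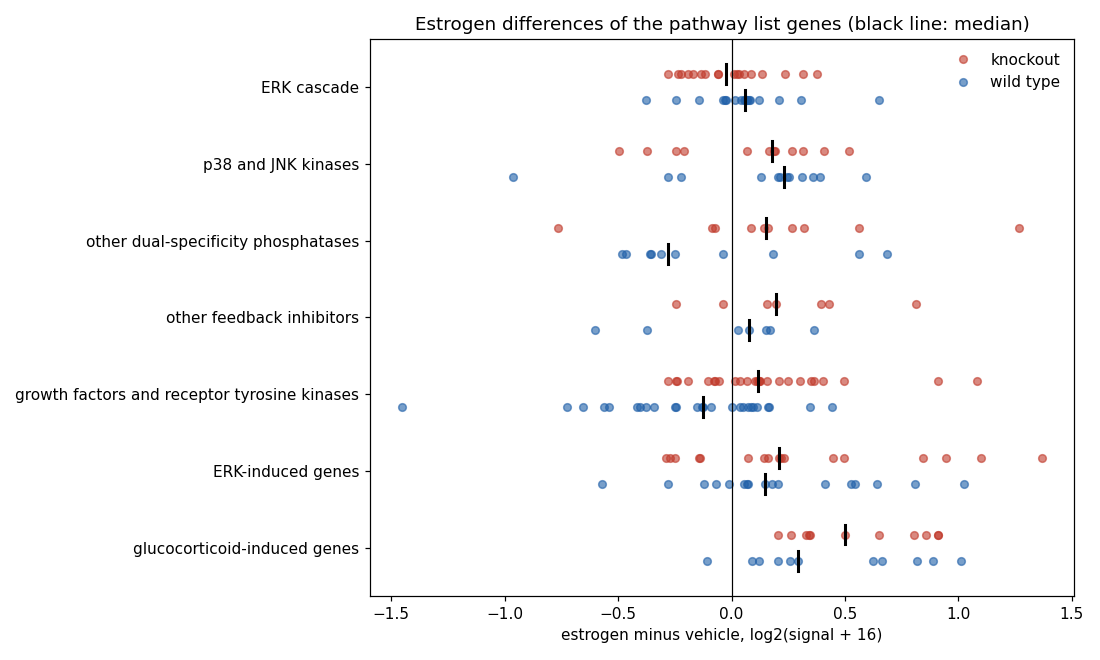
Estrogen minus vehicle on the log2(signal + 16) scale (horizontal axis) for each tested gene of the 7 pathway lists, in knockout (upper row of each list) and wild type (lower row), with black lines at the medians. The glucocorticoid-induced genes lie above 0 in all 11 cases in the knockout and in 10 of 11 in wild type.

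The genes most like each member were sought by Pearson's r of the log2 deviations from the mean of the group and replicate set over 16 arrays, which removes the differences described above and leaves few degrees of freedom, so the values are a description of these arrays. For Dusp1 they were Epn2 (r = 0.98), Spata2l (0.97) and Actn1 (0.91), and for Dusp5 they were Sdc4 (0.98), Cnn3 (0.95) and Col4a2 (0.95). For Dusp6 they were Cops7a (0.99), Pde4dip (0.97) and Cbr1 (0.96), and for Dusp7 1427416_x_at they were Slc1a1 (0.94), S100b (0.93) and Ttyh2 (0.93). For Dusp4 they were Gbp7 (0.95), Crispld1 (0.94) and Ptger4 (0.93). No member was among the 3 most like genes of another member. With so many probe sets compared, this was likely from the outset and says nothing on shared regulation of the members.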

How the data were processed

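Total RNA of 16 mouse femurs was hybridized to Affymetrix mouse whole-genome arrays. The authors deposited a linear intensity for each probe set, computed with GCOS according to the submitters' processing notes, which give no version. Groups and replicate numbers came from the sample titles; the labels of ERaKO-OVX name no vehicle, which was taken from the design text. The arrays were used as deposited and transformed as log2(signal + 16), which understates differences of dim probe sets; the number of mice limits the precision. Of 45101 probe sets, 64 controls and the 30% of lowest mean signal (77.0 or less) were left out, which left 31526. A model with 1 mean per group was fitted in limma 3.58.1 (R 4.3.3; lmFit, eBayes with trend; 12 residual degrees of freedom), two-sided, with Benjamini-Hochberg adjustment over all probe sets tested. The replicate comparison added a term for the set. All member values are per probe set, so a gene can count more than 1 time.

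The members and the gene lists were chosen with earlier results of these data known, as were the replicate sets and the 3 arrays set apart. Named genes were all members, at most the 3 of smallest p per pathway list and comparison, and the 3 most like genes per member. Symbols came from the platform annotation: 34958 probe sets had 1 symbol and 932 several, and the rest stayed unnamed. Whether mice of the same replicate number pair was checked on deviations from the group means: the 24 correlations ran from 0.097 to 0.451 (median 0.24), not all above 0.1, so the numbers were not treated as pairs. The other number of the same set gave a median of 0.30, and all 48 correlations across sets were below 0 (-0.540 to -0.016). The main fit has no term for the set, so this shared difference stays in its spread. Replicates are separate mice per the labels. Alternatives covered quantile normalization, pseudocounts of 1 and 64, other filters, 1 probe set per gene, array weights, a replicate block, a set term, each replicate set alone, and leaving out the 3 arrays or each array. The fit was tested on simulated data of independent normal values. These held neither the difference between replicate sets nor outlying arrays, so that test does not cover them.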

Additional observations from a re-analysis of the deposited data

Results flagged for a closer look

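Of 60 groups of 4 mice (15 probe sets in 4 groups), 3 held a mouse whose gap to its nearest neighbour was above Dixon's 95% critical share of the group's range, which chance gives for about 1 group in 20. For Spry4 1445669_at, WT-OVX replicate 2 had a signal of 353, against 71.8 to 93.4 in the 3 other mice, and that array is 1 of the 3 with high bacterial spike-in signal. For Dusp7 1427416_x_at the same array had 440.5, against 371 to 378. For Spry1, ERaKO-E2-4hr replicate 3 had 872, against 623 to 649.5.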

How the results depend on the processing

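The 1 called member value, that of Dusp4 in the replicate comparison, kept its sign. No member passed in the 7 estrogen and genotype comparisons under any alternative run. Values not called did change sign in some settings. The wild-type estrogen difference of Dusp1 ran from -0.30 to 1.02, and that of Spry1 kept its sign in 23 of 29 alternatives. Over all alternatives, 3241 member differences stayed within the spread between mice and on their side of the threshold, 45 moved further and 10 newly passed. The 3241 include small changes of sign and fits that could not move the estimate. In the replicate comparison Dusp4 passed throughout. Others passed there in some settings: Spry1 in 6 of 24, Dusp1 in 2 (without WT-OVX replicate 1 or 3), Dusp7 1452097_a_at with array weights, and Spry2 1421656_at without WT-E2-4hr replicate 4 (-0.84). Counts of passing probe sets moved as follows, and the cause was not tested. Wild-type estrogen: 0 as reported, 4 with array weights, 3 with the set term. Knockout estrogen: 0, then 1 with weights, 2 with the set term, 1 without the 3 arrays, and 0 to 1 when each array was left out (1 without ERaKO-E2-4hr replicate 1). Knockout against wild type after estrogen: 0, and 0 to 1 (1 without WT-E2-4hr replicate 1). Difference between responses: 0, and 4 in replicates 1 and 2 alone. Estrogen averaged: 1, then 2 with 1 probe set per gene, 10 with weights, 2 with the replicate block, 2 with the set term, 0 in replicates 1 and 2, 2 in replicates 3 and 4, and 3 without the 3 arrays. Genotype averaged: 0, 1 with the set term, and 0 to 1 (1 without ERaKO-OVX replicate 4 or ERaKO-E2-4hr replicate 1). Replicate comparison: 5501, then 2364 with 1 probe set per gene (fewer features), 2957 without the 3 arrays, and 3550 to 5758 (lowest without WT-OVX replicate 3). With the replicate number as a block no other count moved, and 6 of 16 arrays correlated best with their own number. Signals under about 77 limit Spry4 1422020_at and 1422021_at. Tested probe sets also held mice below that level, so their differences rest partly on dim signals. The lowest values were 13.6 for Dusp10 1417163_at, 38.5 for Dusp5 and 36.6 for Spry2 1421656_at. They were 57.8 for Dusp7 1452097_a_at and 71.8 for Spry4 1445669_at.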
